A study of Mus musculus with 36 samples.

Results

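The soleus, a slow postural hindlimb muscle, was compared between mice that express MuSK without Ig3, the third of its immunoglobulin-like domains (∆Ig3-MuSK), and wild-type (WT) mice. All 9 ∆Ig3-MuSK and 9 WT soleus libraries of the series were taken, which make 18 of its 36 libraries. The other 18 come from the TA (tibialis anterior) of the same genotypes. The mice were males, 3 months of age, on a C57BL/6 background. The ∆Ig3-MuSK mice were homozygous for a germline allele made with CRISPR-Cas9, so every cell of the animal carries it and not only the muscle fiber. Each library holds RNA of a single whole muscle, with its vessels, nerve endings and connective tissue. In such bulk samples, fewer cells of a type and less RNA per cell cannot be told apart.

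MuSK is a receptor tyrosine kinase of the muscle membrane that is best known for building the neuromuscular synapse, where agrin and LRP4 activate it. It is also a coreceptor for bone morphogenetic proteins (BMPs), which it binds through the Ig3 domain, and BMP receptors signal through phosphorylated SMAD proteins to target genes. In rodents MuSK is more abundant in slow muscle such as the soleus than in fast muscle, and there it is found along the fiber as well as at the synapse. The question put by this comparison was which transcripts of a slow muscle differ when only the BMP-binding domain is missing.

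In GRCm38, the gene Musk (ENSMUSG00000057280) takes up positions 58285960 to 58374303 of chromosome 4 and is read from the plus strand. The deleted exons 6 and 7, which code for the Ig3 domain, are printed here because they are what the mutant allele lacks. They hold 292 of the 3348 bases of the 14-exon transcript (8.72%), and from the start of the first to the end of the second they span 10754 bp. The sequences are on the plus strand, 5′ to 3′, from the GENCODE M21 transcripts of GRCm38.
Musk exon 6, chr4:58333565-58333689: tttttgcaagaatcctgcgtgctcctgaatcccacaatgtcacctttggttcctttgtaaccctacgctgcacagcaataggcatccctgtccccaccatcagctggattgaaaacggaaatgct
Musk exon 7, chr4:58344152-58344318: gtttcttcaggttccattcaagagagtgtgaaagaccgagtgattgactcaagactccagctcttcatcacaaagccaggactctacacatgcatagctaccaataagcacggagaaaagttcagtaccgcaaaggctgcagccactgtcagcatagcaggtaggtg

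The deposited counts add up reads over a whole gene, so the loss of these 292 bases cannot be read from them directly. In ∆Ig3-MuSK the 14-exon transcript lacks 8.72% of its bases. The counts were not corrected for this loss, and its part in the Musk values was not tested. The Musk level, in CPM (counts scaled to library size, with edgeR's TMM factors), ran from 12.9 to 19.2 with a median of 15.4 in WT and from 8.42 to 18.4 with a median of 10.6 in ∆Ig3-MuSK. Of the 9 ∆Ig3-MuSK libraries, 7 lay below the lowest WT library and the others inside the WT range. The means were 15.8 ± 1.85 CPM (SD, n = 9) and 11.7 ± 3.49 CPM (SD, n = 9), and the log2 fold change of −0.44 (standard error, SE, of 0.13) did not pass the test (edgeR quasi-likelihood, adjusted p = 0.0978). It was called in 4 of 10 alternative fits, among them DESeq2 on the same genes (adjusted p = 0.04), with an adjusted p of 0.0371 to 0.121 over the 10. It was also called without ∆Ig3-MuSK replicate 5 (adjusted p = 0.0472). Musk reads were counted in every ∆Ig3-MuSK soleus.

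Library depth and makeup differed among the 18 samples, and these facts bear on the results that follow. The counts on genes summed to 43492062 to 50051435 per library in WT and to 46397769 to 60426556 in ∆Ig3-MuSK, and the ∆Ig3-MuSK totals were higher (exact permutation test, 2-sided, p = 0.00893). Each of the 153 possible pairings of libraries differed by more than sampling noise, with a chi-square per degree of freedom of at least 8.79. The slow fiber myosin gene Myh7, a defining marker of this muscle, was at 6767 to 10843 CPM over the 18 libraries. The ∆Ig3-MuSK replicate 8 stood apart by its tendon markers, with a mean log2 CPM over 12 genes of 0.91 against 3.46 to 4.53 in the other ∆Ig3-MuSK and 3.81 to 5.25 in the WT libraries. Its counts were 0 for Mkx, 1 for Kera and 11 for Tnmd, all tendon genes. WT replicates 1 and 2 stood apart from WT replicates 3 to 9 by their fast fiber genes, at 11.3 and 11.1 mean log2 CPM against 9.70 to 10.5, while the ∆Ig3-MuSK libraries were at 10.5 to 11.1. Neuron and glia markers, at a low level throughout, had a mean log2 CPM of 0.88 to 1.13 in ∆Ig3-MuSK replicates 1 to 6 and 8, 0.66 and 0.61 in replicates 7 and 9, and 0.48 to 0.75 in WT.

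**Figure D1:**
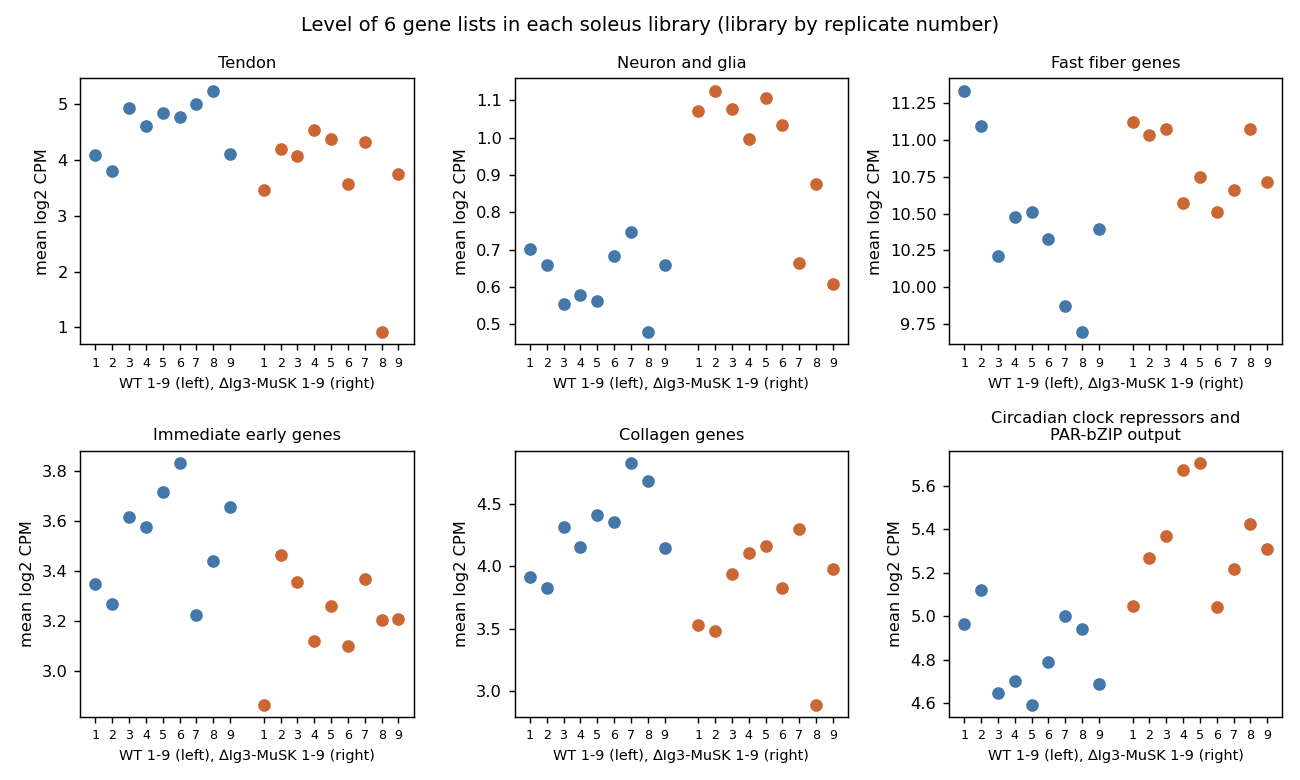
Mean log2 CPM of 6 gene lists (y axis) in each of the 18 soleus libraries, ordered by replicate number, with WT in blue on the left and ∆Ig3-MuSK in orange on the right of each panel. Tendon markers are at 0.91 in ∆Ig3-MuSK replicate 8, below all other libraries, and neuron and glia markers are above the highest WT value of 0.75 in 7 ∆Ig3-MuSK libraries.

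Of 19439 genes tested in the soleus, 185 were called, that is, they had an adjusted p under 0.05 and at least a 1.2-fold change, or 0.952%. Of these, 71 were higher in ∆Ig3-MuSK (0.365% of the genes tested) and 114 were lower (0.586%). The higher ones held 10 circadian clock repressor and output genes and 10 neuron and glia markers, and the lower ones 5 cholesterol genes, 4 immediate early genes, 4 actin cytoskeleton genes and 4 ER chaperone genes; these are counts, with no test of enrichment. Most changes were moderate, with a median absolute log2 fold change of 0.52 over the called genes and a range from 0.27 to 1.81. Without adjustment, 1648 genes were higher (8.48%) and 1957 lower (10.1%) at p under 0.05, and the median log2 fold change of all genes was −0.0017. In 12 genes (0.0617%), 4 higher (0.0206%) and 8 lower (0.0412%), the 9 WT and 9 ∆Ig3-MuSK values did not overlap, and 10 of them were among the called genes (5.41% of these). The 10 were Nr1d2, Ddn, Lin52 and Dusp7, which were higher, and Rgs2, Auts2, Npas2, Vstm4, Gm29233 and Rom1, which were lower; Lin52, Dusp7 and Rom1 were picked out for this after their values were seen.

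The number of calls moved strongly when a single library was left out, and all calls are those of edgeR unless another tool is named. With each library left out in turn it ran from 22, without WT replicate 5, to 603, without WT replicate 1. It rose to 415 without WT replicate 2 and 313 without ∆Ig3-MuSK replicate 7. It dropped to 29 without WT replicate 3, 34 without replicate 4, 29 without replicate 6, 48 without replicate 8 and 89 without replicate 9 of the WT group. Among the ∆Ig3-MuSK libraries it dropped to 48 without replicate 1, 69 without replicate 2, 66 without replicate 3, 39 without replicate 4, 51 without replicate 5 and 116 without replicate 8. The number of genes at an unadjusted p under 0.05 moved less. It ran from 2997, without WT replicate 8, to 4479, without WT replicate 1, beside 3605 with all libraries. None of the 185 genes changed sign in any of these 18 fits, and 21 of them (13 higher, 8 lower) were called in all 18. The higher ones included the clock genes Nr1d2, Dbp, Per3 and Ciart with Sphk2, Gad2, Pcsk2, Hpca, Ppp1r1b, Ddn, Mapk8ip2 and mt-Ta, and the lower ones were the clock gene Npas2 with Rgs2, Auts2, Tspan18, Afap1l2, Col13a1, Ypel2 and Tubb4b-ps1. The calls within the gene lists moved likewise, between 4 (without WT replicate 5) and 10 for clock repressors and outputs, between 0 (without WT replicate 5) and 8 (without WT replicate 2) for immediate early genes and between 0 and 9 (without WT replicate 2) for cholesterol genes. For neuron and glia markers they ran from 1, with any of WT replicates 3, 4, 5 and 8 or ∆Ig3-MuSK replicates 1, 4 and 5 left out, to 15, without WT replicate 1 or ∆Ig3-MuSK replicates 7 or 9.

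**Figure D2:**
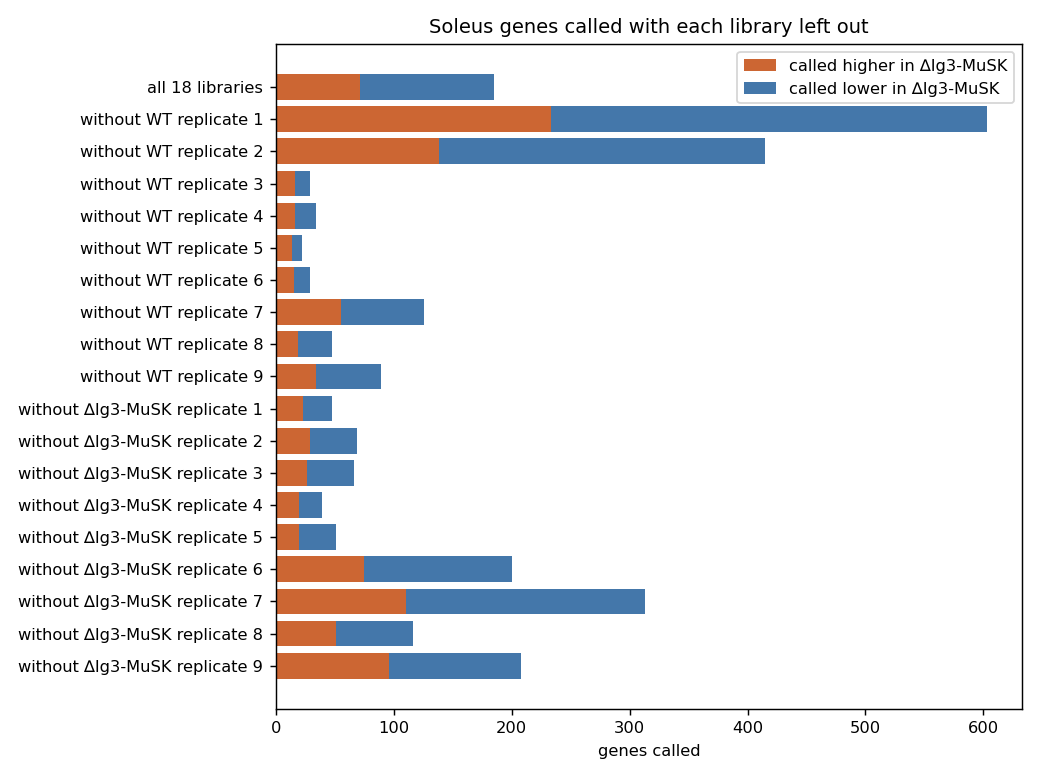
Number of soleus genes called (x axis) in the fit of all 18 libraries and in 18 fits that each leave out the library named on the y axis, split into genes higher (orange) and lower (blue) in ∆Ig3-MuSK. The total is 185 with all libraries, 22 without WT replicate 5 and 603 without WT replicate 1.

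The smallest adjusted p belonged to Rgs2 (ENSMUSG00000026360), which codes for a GTPase-activating protein that shortens signaling by Gq-coupled receptors. Its level ran from 8.47 to 13.3 CPM (median 11.1) in WT and from 5.63 to 7.93 CPM (median 6.83) in ∆Ig3-MuSK, so every ∆Ig3-MuSK library lay below every WT library. The log2 fold change was −0.67 (SE 0.09, adjusted p = 0.00459). Rgs9, a related gene known from striatal neurons and photoreceptors, moved the other way from 0.263 to 0.512 CPM on average, with a log2 fold change of 0.94 (adjusted p = 0.0424), and was called in 5 of the 18 fits that left out a library. The other 13 of the 15 RGS genes tested were not called.

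Auts2, which codes for a chromatin and cytoskeleton regulator studied mainly in neurons, also separated the groups without overlap. It ran from 14.04 to 19.03 CPM (mean 16.0) in WT and from 9.09 to 13.96 CPM (mean 11.2) in ∆Ig3-MuSK, with a log2 fold change of −0.51 (SE 0.08, adjusted p = 0.0135). Eng, which codes for endoglin, a coreceptor for BMP9, BMP10 and TGFβ in endothelial cells, fell from 59.7 ± 10.6 CPM (SD, n = 9) to 44.3 ± 5.79 CPM (SD, n = 9). Its groups overlapped, since WT replicate 1 was the lowest WT library at 40.8 CPM and 3 ∆Ig3-MuSK libraries lay below it. The log2 fold change of Eng was −0.43 (SE 0.10, adjusted p = 0.0364), and it was called in 5 of the 18 fits with a library left out, with an adjusted p of up to 0.0743 without WT replicate 3. Of 30 endothelial markers tested, edgeR called Eng alone (DESeq2 called 8, 1 higher and 7 lower), 23 were below 0 and the median log2 fold change was −0.12.

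**Figure D3:**
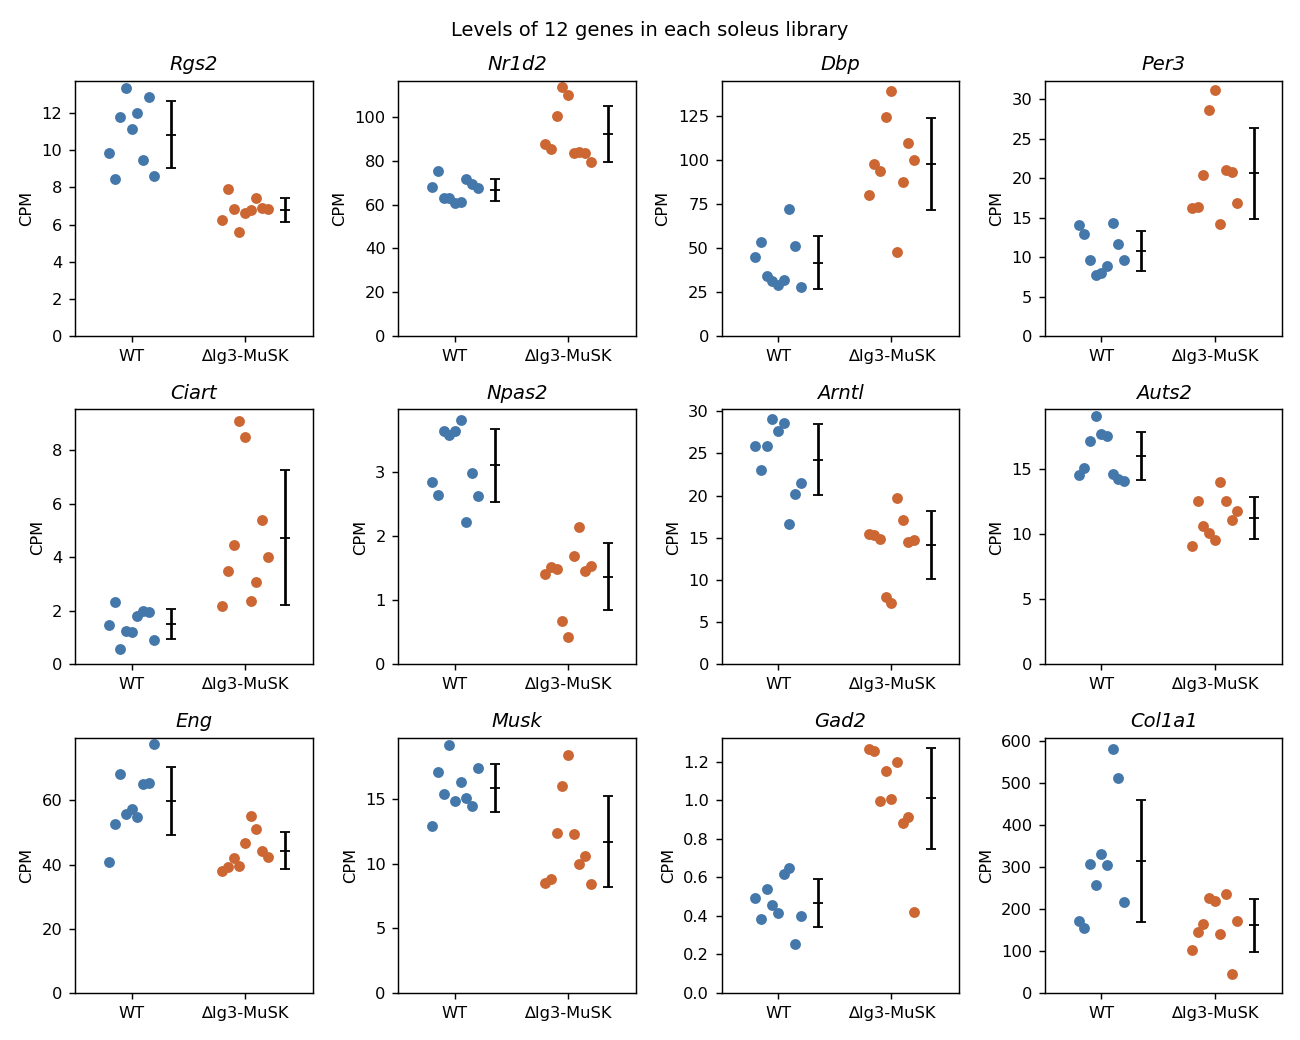
CPM (y axis) of 12 genes in each soleus library, WT in blue and ∆Ig3-MuSK in orange (9 points each, in replicate order), with the mean and SD of the group as a black bar beside the points. The groups do not overlap for Rgs2, Nr1d2, Npas2 and Auts2, and 7 ∆Ig3-MuSK libraries lie below all WT libraries for Musk.

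The circadian clock of muscle is a feedback loop in which BMAL1 (gene Arntl) with CLOCK or NPAS2 activates genes through E-boxes, and the PER, CRY and REV-ERB proteins that result hold this activity back. The PAR-bZIP factors DBP, TEF and HLF are outputs of the loop and bind D-boxes. Of 17 repressor and PAR-bZIP output genes tested, 10 rose in ∆Ig3-MuSK, none fell and the median log2 fold change was 0.47. Of 7 activator genes tested, Arntl and Npas2 fell and the median was −0.27.

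Promoter sequences of 3 clock genes are shown because their transcripts were called here in opposite directions. They come from RefSeq on GRCm38.p6, cover 250 bases before to 50 after the start, and are written 5′ to 3′ on the strand of the gene. Capitals mark the motifs found on either strand: the E-box CACGTG in Ciart, the D-box (TTATGTAA or TTACGTAA) in Per3 and TAGGTCA, the core of the element bound by ROR and REV-ERB proteins, in Arntl. None of the motifs overlaps another in these windows.
Ciart, chr3:95882179-95882478, minus strand: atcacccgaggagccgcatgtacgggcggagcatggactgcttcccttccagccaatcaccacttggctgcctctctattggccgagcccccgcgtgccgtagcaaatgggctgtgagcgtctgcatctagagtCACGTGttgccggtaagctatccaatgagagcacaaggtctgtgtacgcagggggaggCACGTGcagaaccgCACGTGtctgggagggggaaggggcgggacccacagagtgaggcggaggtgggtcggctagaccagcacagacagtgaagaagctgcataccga
Per3, chr4:151044616-151044915, minus strand: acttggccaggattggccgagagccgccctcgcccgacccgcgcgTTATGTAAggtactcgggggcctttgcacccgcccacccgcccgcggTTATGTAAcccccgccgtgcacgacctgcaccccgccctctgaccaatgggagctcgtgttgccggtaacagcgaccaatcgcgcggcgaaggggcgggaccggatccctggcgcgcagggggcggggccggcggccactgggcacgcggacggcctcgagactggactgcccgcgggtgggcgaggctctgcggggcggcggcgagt
Arntl, chr7:113207261-113207560, plus strand: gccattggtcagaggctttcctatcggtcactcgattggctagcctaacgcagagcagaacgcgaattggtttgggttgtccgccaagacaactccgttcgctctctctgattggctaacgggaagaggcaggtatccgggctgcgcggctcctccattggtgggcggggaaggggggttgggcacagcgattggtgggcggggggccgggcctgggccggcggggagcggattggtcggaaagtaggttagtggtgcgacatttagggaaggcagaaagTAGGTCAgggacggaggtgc

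The E-box was in the promoter of 5 of the 14 matched genes of the repressor and output list (Bhlhe41, Ciart, Cry1, Per1 and Tef) and in 7.15% of all 32851 promoters. Of these genes, Cry1 and Per1 were not called in the soleus. The D-box was in 1 of the 14 (Per3) and in 1.06% of all, and TAGGTCA was in 2 of 7 matched activator genes (Arntl and Nfil3) and in 2.61% of all. Over every called gene with a promoter, the E-box was in 9 of 46 higher and 8 of 72 lower genes. It was also in 7 of 29 matched immediate early genes. A gene counted if any of its promoter windows held the motif, while the percentages are shares of single windows, so counts and percentages are unlike measures. These counts describe letters in the windows and show nothing about binding.

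Nr1d2, which codes for REV-ERBβ, was the repressor with the smallest adjusted p. It ran from 60.6 to 75.2 CPM (median 67.8) in WT and from 79.7 to 114 CPM (median 85.7) in ∆Ig3-MuSK, with no overlap and a log2 fold change of 0.47 (SE 0.07, adjusted p = 0.0134). Dbp ran from 28.1 to 72.1 CPM (median 34.3) in WT and from 48.0 to 140 CPM (median 97.6) in ∆Ig3-MuSK, with 8 libraries above all WT libraries. The log2 fold change of Dbp was 1.23 (SE 0.19, adjusted p = 0.0135). Sphk2, a sphingosine kinase gene, overlaps the exons of Dbp on the opposite strand by 539 bp. Reads from that stretch cannot be told apart without strand, and the paper does not give how the counting treated them. The log2 fold change of Sphk2, 0.66 (adjusted p = 0.0135), and that of Dbp are uncertain for that reason.

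The period genes Per3 and Per2 and the repressor gene Ciart followed the same direction, while Per1 and Cry1 of the same list were not called. Per3 went from a median of 9.68 CPM in WT (7.66 to 14.3) to 20.4 CPM in ∆Ig3-MuSK (14.3 to 31.1), a log2 fold change of 0.94 (SE 0.16, adjusted p = 0.0161). Ciart, which codes for the repressor CHRONO, went from a median of 1.47 CPM (0.559 to 2.32) to 4.02 CPM (2.19 to 9.10), with a log2 fold change of 1.65 (SE 0.29, adjusted p = 0.0164). In both genes 8 ∆Ig3-MuSK libraries lay above all WT libraries. Per2 rose by 1.42 (SE 0.31, adjusted p = 0.0339) on the log2 scale, and was called in 9 of the 18 fits with a library left out.

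Hlf, Tef, Bhlhe41, Cry2 and Usp2, the last a deubiquitinase under clock control, completed the list of 10, with log2 fold changes of 0.85, 0.48, 0.45, 0.44 and 0.59. They were called in 17, 14, 13, 11 and 5 of the 18 fits with a library left out, each with its largest adjusted p without WT replicate 5 (0.0515, 0.0645, 0.0666, 0.0666 and 0.0934). Nr1d1, which codes for REV-ERBα and is the close relative of Nr1d2, was at 149.6 ± 24.0 CPM (SD, n = 9) in WT against 162 ± 20.3 CPM in ∆Ig3-MuSK (log2 fold change 0.11, adjusted p = 0.542).

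On the activator side, Npas2 ran from 2.22 to 3.80 CPM (median 2.98) in WT and from 0.432 to 2.14 CPM (median 1.48) in ∆Ig3-MuSK, again with no overlap. Its log2 fold change was −1.18 (SE 0.20, adjusted p = 0.0164). Arntl went from a median of 25.9 CPM (16.6 to 29.1) to 14.9 CPM (7.30 to 19.8), with 7 ∆Ig3-MuSK libraries below all WT libraries and a log2 fold change of −0.78 (SE 0.16, adjusted p = 0.0291). Clock, at a log2 fold change of −0.27 (adjusted p = 0.0577), and Nfil3, at −0.61 (adjusted p = 0.0565), did not pass the test. With the tendon, neuron and glia, fast fiber or immediate early level as a covariate, each added after the data were seen, the median of the repressor and output list was 0.50, 0.39, 0.44 and 0.37, and edgeR called 5 of its 17 genes with the first and 0 with the others (9 to 11 at an unadjusted p under 0.05). The covariate levels themselves differed in median between the genotypes, so these fits cannot separate them from genotype. The sources used here give no time of day at which the muscles were taken, so its part in the clock gene values was not tested. Sample numbers in the labels form separate runs for the genotypes. A session or time of day that went with these numbers could not be told apart from genotype.

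Immediate early genes are switched on within minutes by growth factors, stretch or stress. Of 37 tested, 4 fell by edgeR (Ccn1, Sik1, Fosl2 and Egr3) and none rose (DESeq2 called 1 higher and 9 lower), 32 were below 0 and the median log2 fold change was −0.34. Ccn1, which codes for a matricellular protein and is a target of YAP and SRF, ran from 36.9 to 77.2 CPM (median 55.4) in WT and reached at most 40.2 CPM (median 32.8) in ∆Ig3-MuSK, a log2 fold change of −0.76 (SE 0.14, adjusted p = 0.0219). In 6 ∆Ig3-MuSK libraries it lay below all WT libraries. Sik1, a kinase gene induced by cAMP, and Fosl2, an AP-1 subunit, had log2 fold changes of −0.67 (adjusted p = 0.0260) and −0.54 (adjusted p = 0.0313). Egr3, a zinc finger factor needed for muscle spindles, had the second largest decrease of all called genes, −1.56 (SE 0.38, adjusted p = 0.0459), but 3 ∆Ig3-MuSK libraries alone lay below the lowest WT library at 0.556 CPM, and it was called in 4 of the 18 fits with a library left out. Jun, an AP-1 subunit of high level, had a log2 fold change of −0.18 (adjusted p = 0.317).

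Most extracellular matrix genes had a log2 fold change below 0, and few were called by edgeR in the fit of all 18 libraries. Of 31 collagen genes tested, Col13a1 fell, 29 were below 0 and the median log2 fold change was −0.47. All 25 genes of collagen processing and crosslinking were below 0, with Creb3l1 and Tram2 called, and so were 25 of 29 matrix protease and inhibitor genes, with Adamts4 and Plat called. Of 34 elastic fiber and matricellular genes, Thbs1 and Spon2 fell, 32 were below 0 and the median was −0.55. Over all genes tested, 50.6% were below 0 and 49.4% above it. At an unadjusted p under 0.05 were 20 collagen, 19 processing, 16 protease (13 lower, 3 higher) and 26 matricellular genes, beside 18.5% of all genes tested. DESeq2 called 4, 7, 7 and 7 genes of these lists, all lower. With a library left out, the edgeR calls ran from 1 to 7, 0 to 8, 0 to 7 and 0 to 6.

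Col13a1 codes for a transmembrane collagen of the muscle membrane that takes part in maintaining the neuromuscular synapse. It ran from 1.83 to 2.91 CPM (median 2.40) in WT and from 1.00 to 1.85 CPM (median 1.56) in ∆Ig3-MuSK, with 8 libraries below all WT libraries and a log2 fold change of −0.70 (SE 0.12, adjusted p = 0.0161). The fibrillar collagen gene Col1a1 was at 315 ± 146 CPM (SD, n = 9) in WT against 161 ± 62.6 CPM in ∆Ig3-MuSK, and its log2 fold change of −0.97 (SE 0.28, adjusted p = 0.0832) did not pass. Its values ran from 155 to 581 CPM in WT and from 44.7 to 236 CPM in ∆Ig3-MuSK, the lowest in replicate 8. Col1a2 (−0.75, adjusted p = 0.142), Col3a1 (−0.70, adjusted p = 0.133) and Col4a1 (−0.43, adjusted p = 0.0723) did not pass either.

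Creb3l1 codes for OASIS, a factor of the endoplasmic reticulum (ER) that drives collagen gene transcription. It went from a median of 5.12 CPM (4.13 to 6.88) to 2.91 CPM (2.16 to 4.65), with a log2 fold change of −0.73 (SE 0.14, adjusted p = 0.0235). Adamts4, an aggrecanase gene, had a log2 fold change of −1.36 (adjusted p = 0.0202), and Thbs1, which codes for thrombospondin-1, one of −1.42 (adjusted p = 0.0378). Gm29233 overlaps Thbs1 on the opposite strand by 208 bp, so its own decrease of −1.52 (adjusted p = 0.0313) may not be separate from that of Thbs1. Itga2 and Itga5, integrin subunits that bind collagen and fibronectin, fell by 1.49 and 0.42 on the log2 scale (adjusted p = 0.0405 and 0.0327), 2 of 19 integrin genes tested. The number of integrin genes called ran from 0 to 5 with a library left out.

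Tendon marker values were also lower on average in ∆Ig3-MuSK. The list shares Col12a1 with the collagen list, Thbs4 and Tnc with the matricellular list and Egr1 with the immediate early list. All 12 tested were below 0, with a median log2 fold change of −0.70, but edgeR called none (7 had an unadjusted p under 0.05, and DESeq2 called 1). Their summed level ran from 355 to 966 CPM in WT and from 56.9 to 625 CPM in ∆Ig3-MuSK. Without ∆Ig3-MuSK replicate 8, the median of the collagen list was −0.42 and that of the elastic fiber and matricellular list −0.45. With the tendon level as a covariate, added after the data were seen, these medians were −0.10 and −0.13, a comparison in which the lists share the members named, 26 genes were called in all, and none of them in the collagen, processing, protease or matricellular lists. With the fast fiber level as a covariate in its place, the medians were −0.19 and −0.18 and 0 genes were called in all by edgeR (1814 had an unadjusted p under 0.05). Both covariate levels differed in median between the genotypes, and the tendon level lay below all WT libraries in 4 ∆Ig3-MuSK libraries. Neither fit can therefore separate its covariate from genotype.

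Cholesterol is made from acetyl-CoA by enzymes that SREBP2 switches on when cells are short of sterol. Of 26 genes of synthesis and uptake tested, 5 fell, Cyp51 and Sqle among them, none rose, 21 were below 0 and the median log2 fold change was −0.17. Cyp51, which codes for lanosterol demethylase, ran from 4.47 to 7.84 CPM (median 6.19) in WT and from 3.54 to 4.98 CPM (median 4.44) in ∆Ig3-MuSK, and 5 ∆Ig3-MuSK libraries lay below all WT libraries. Its log2 fold change was −0.50 (SE 0.10, adjusted p = 0.0301). Sqle, which codes for squalene epoxidase, had one of −0.68 (SE 0.15, adjusted p = 0.0363), with 1 ∆Ig3-MuSK library below the lowest WT library. Srebf2 itself was at −0.34 (adjusted p = 0.0565) and Fdft1 was above 0 at 0.25 (adjusted p = 0.0984). Cyp51 and Sqle were called in 11 and 6 of the 18 fits with a library left out, each with its largest adjusted p without WT replicate 5 (0.0666 and 0.0749).

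Of 22 ER chaperone and stress genes tested, Hyou1, Sdf2l1, Manf and Sec61a1 fell, none rose and the median log2 fold change was −0.15. With a library left out, the number called ran from 0 to 7. Sdf2l1, a cofactor of the chaperone BiP, had the largest of these changes, −0.59 (SE 0.12, adjusted p = 0.0313), and Hyou1, an ER chaperone, changed by −0.29 (SE 0.06, adjusted p = 0.0301). Hspa5, which codes for BiP, did not pass at −0.34 (adjusted p = 0.0563). Of 18 heat shock genes edgeR called Hspa1b alone, at −0.52 (adjusted p = 0.0445), while DESeq2 called 3, and reads of Hspa1b can be shared with the near-identical Hspa1a. The edgeR count for heat shock genes ran from 0 to 4 with a library left out.

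The actin cytoskeleton of non-muscle type carries focal adhesions. Of 27 actin cytoskeleton and focal adhesion genes tested, Nedd9, Actb, Cnn2 and Actg1 fell, none rose, 24 were below 0 and the median was −0.24. The count ran from 0 to 12 with a library left out, with 0 without WT replicates 4, 5 or 6 or ∆Ig3-MuSK replicates 1, 4 or 5 and 12 without WT replicate 1, and Actb, Cnn2 and Actg1 were called in 7, 6 and 5 of the 18 fits. Nedd9, a focal adhesion scaffold gene, had a log2 fold change of −0.98 (SE 0.20, adjusted p = 0.0291). Actb, cytoplasmic β-actin, went from a median of 246 CPM (206 to 293) to 194 CPM (147 to 225), with 8 ∆Ig3-MuSK libraries below all WT libraries (log2 fold change −0.39, adjusted p = 0.0327), and Actg1 had one of −0.35 (adjusted p = 0.0390). Reads of actin genes can be split among near-identical copies, which makes these 2 values and that of Acta2 uncertain. Among 15 pericyte and smooth muscle markers, Foxs1 (−0.60, adjusted p = 0.0342) and Acta2 (−0.38, adjusted p = 0.0496) were called, and of 11 satellite cell markers Sdc4 (−0.37, adjusted p = 0.0381). The numbers called in these 2 lists ran from 0 to 6 and from 0 to 2 with a library left out.

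**Figure D4:**
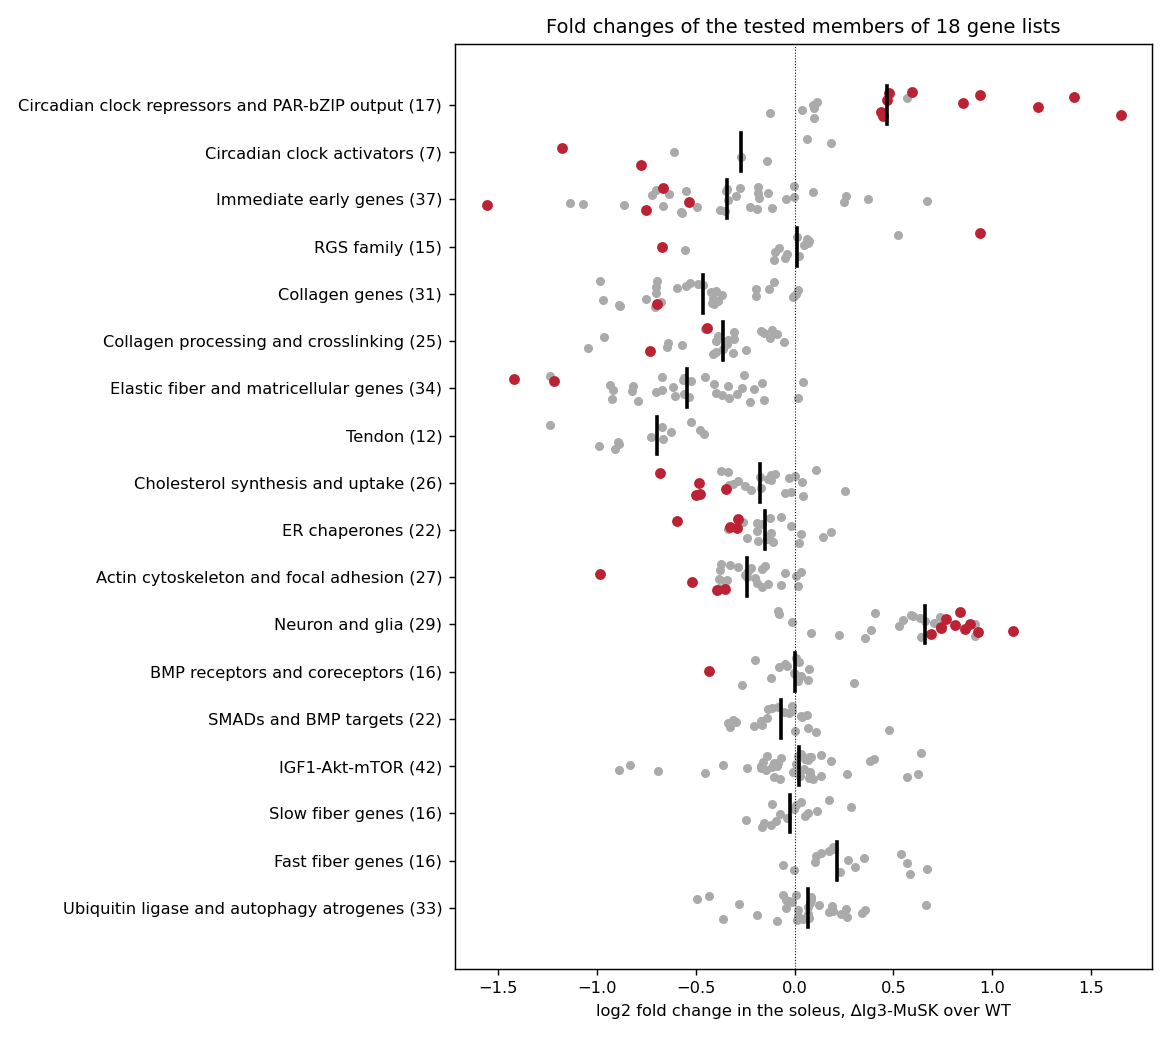
Log2 fold change in the soleus, ∆Ig3-MuSK over WT (x axis), of each tested member of 18 gene lists (y axis, with the number of members), where red points are called genes, gray points are not and the black bar is the median of the list. The clock repressor and neuron lists have medians of 0.47 and 0.66, and the tendon, matricellular and collagen lists of −0.70, −0.55 and −0.47.

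Of 29 neuron and glia markers tested, 10 rose, none fell and the median log2 fold change was 0.66, beside −0.07 in the TA. Whether these transcripts come from cells of the muscle or from RNA of other tissue or samples was not tested. The 10 were Gad1 and Gad2, which make GABA, the AMPA receptor subunits Gria1 and Gria2, the vesicle protein gene Syt1, the RNA-binding protein gene Celf4, the astrocyte genes Gfap and Slc1a2, the brain proteoglycan gene Ncan and the oligodendrocyte gene Mobp. Their levels were low: Gad2 ran from 0.254 to 0.645 CPM (median 0.457) in WT and from 0.422 to 1.26 CPM (median 1.01) in ∆Ig3-MuSK. All ∆Ig3-MuSK libraries but replicate 9 lay above all WT libraries for Gad2, and the log2 fold change was 1.11 (SE 0.19, adjusted p = 0.0161). The other 9 had log2 fold changes of 0.69 to 0.93 and adjusted p of 0.0290 to 0.0428.

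Other called genes known from brain were Hpca, a neuronal calcium sensor gene, with a log2 fold change of 0.86 (SE 0.15, adjusted p = 0.0164), and Ppp1r1b, which codes for DARPP-32 of striatal neurons, with 0.80 (SE 0.14, adjusted p = 0.0164). Pcsk2, a prohormone convertase gene, rose by 1.40 (adjusted p = 0.0164), Mapk8ip2, a JNK scaffold gene, by 0.72 (adjusted p = 0.0202) and Ddn, which codes for dendrin, by 0.59 (adjusted p = 0.0164). Ddn was the only one of these 5 whose groups did not overlap, at 1.23 to 1.67 CPM in WT and 1.69 to 2.84 CPM in ∆Ig3-MuSK. The summed level of all 34 listed markers ran from 96.5 to 168 CPM in WT and from 132 to 159 CPM in ∆Ig3-MuSK. Camk2a, Cnp and Aqp4, none of them called, had the highest counts of the list, at least 2539, 920 and 245 per WT library. The sum therefore says little about the markers of low level. Snap25, a defining neuronal marker chosen after its values were seen, had 26 to 63 counts per library in WT and 36 to 98 in ∆Ig3-MuSK. Of the oligodendrocyte genes in the list, Olig2 and Opalin had 0 counts in 6 and 7 of the 18 libraries. Mog, Olig1, Mobp and Cnp, also of oligodendrocytes, were counted in all 18, and Mobp was called higher. With the mean log2 CPM of this list as a covariate, added after the data were seen, edgeR called 0 of all genes (894 had an unadjusted p under 0.05), and the part of this signal in the other results was not tested further. The covariate itself went with genotype, lying above all WT libraries in 7 ∆Ig3-MuSK libraries. The fit therefore cannot separate this level from genotype. Schwann cell markers, the glia of peripheral nerve, had a median log2 fold change of 0.14 over 14 genes with none called by edgeR (2 at an unadjusted p under 0.05; DESeq2 called 1).

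Components of the BMP pathway were mostly not called. Of 16 receptors and coreceptors tested, Eng was called and the median log2 fold change was 0.00059. The type I and II receptor genes Bmpr1a and Bmpr2 were at 55.4 ± 3.55 and 71.8 ± 5.10 CPM (SD, n = 9) in WT against 56.7 ± 3.85 and 71.8 ± 6.36 CPM in ∆Ig3-MuSK (adjusted p = 0.729 and 0.994). Hfe2, which codes for hemojuvelin, a BMP coreceptor abundant in muscle, was at 459 ± 34.1 and 483 ± 29.7 CPM (SD, n = 9; adjusted p = 0.441). None of 25 ligand and antagonist genes was called by edgeR (9 had an unadjusted p under 0.05, all lower; DESeq2 called 2). None of 22 SMAD and BMP target genes was called either (7 had an unadjusted p under 0.05; DESeq2 called 1), with Smad4 at a log2 fold change of 0.06 (adjusted p = 0.472) and Car3, carbonic anhydrase 3, at 0.48 (adjusted p = 0.0718).

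Of 20 genes of the MuSK pathway and the synapse tested, none was called by edgeR (7 had an unadjusted p under 0.05, all lower; DESeq2 called 1), 17 were below 0 and the median was −0.10. Utrn, which codes for the synaptic dystrophin relative utrophin, was at −0.16 (adjusted p = 0.241), Prkar1a, a protein kinase A subunit gene, at −0.17 (adjusted p = 0.211) and Bgn, which codes for the MuSK-binding proteoglycan biglycan, at −0.55 (adjusted p = 0.150).

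Of 42 genes of the IGF1-Akt-mTOR pathway, none was called by edgeR (14 had an unadjusted p under 0.05; DESeq2 called 5, 2 higher and 3 lower) and the median log2 fold change was 0.02. Akt2 was at 0.07 (adjusted p = 0.297), Igfbp5 at −0.24 (adjusted p = 0.115) and Txnip at 0.64 (adjusted p = 0.0829), the last sharing 606 bp of exon with Gm15441 on the opposite strand. Slow fiber genes had a median of −0.02 over 16 genes, with Myh7 at 8856 ± 1377 and 8622 ± 1406 CPM (SD, n = 9; adjusted p = 0.878). Fast fiber genes had a median of 0.21 over 16 genes, 14 of them above 0, with the IIX myosin gene Myh1 at 4665 ± 1709 and 5759 ± 1545 CPM (SD, n = 9; adjusted p = 0.423) and the IIA gene Myh2 at −0.06 (adjusted p = 0.724). For both lists edgeR and DESeq2 called none, and 2 genes of each had an unadjusted p under 0.05.

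Of 33 ubiquitin ligase and autophagy atrogenes, none was called by edgeR (13 had an unadjusted p under 0.05; DESeq2 called 1), and Fbxo32, which codes for atrogin-1, was at 339 ± 48.4 and 356 ± 42.7 CPM (SD, n = 9; adjusted p = 0.698). Of 18 glucocorticoid-responsive genes, Klf9 rose by 0.30 (SE 0.07, adjusted p = 0.0405) and the median was 0.31. The number called in this list ran from 0 to 3 with a library left out. Their mean log2 CPM was 5.77 and 5.42 in ∆Ig3-MuSK replicates 4 and 5 and at most 5.00 in the other libraries. Splicing factors and ribosome biogenesis factors had medians of 0.02 and 0.03 over 40 and 43 genes, with none called by edgeR (2 and 7 at an unadjusted p under 0.05; DESeq2 called 0 and 1). Among markers of other cells, edgeR called none for fibro-adipogenic progenitors (median −0.17 over 15 genes), macrophages and leukocytes (−0.35 over 17), adipocytes (0.45 over 10), erythroid cells (0.29 over 5) and the muscle fiber itself (0.01 over 10), with 2, 0, 2, 0 and 1 genes at an unadjusted p under 0.05. DESeq2 called 1 adipocyte gene and none of the other 4 lists. The erythroid level was highest in ∆Ig3-MuSK replicate 9, at a mean log2 CPM of 8.14 against at most 7.12 in WT.

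Several of the strongest calls belonged to none of these lists. Tspan18, a tetraspanin gene, had a log2 fold change of −0.55 (SE 0.09, adjusted p = 0.0135), and Afap1l2, which codes for an adaptor of Src and actin, one of −0.54 (SE 0.09, adjusted p = 0.0161), with 8 of 9 ∆Ig3-MuSK libraries below all WT libraries. Ypel2 (−0.77, adjusted p = 0.0164), Wsb1 (−0.54, adjusted p = 0.0203), Tmem171 (−1.38, adjusted p = 0.0252) and Vstm4 (−0.40, adjusted p = 0.0219) also fell. Prnd, which codes for the prion-like protein doppel, had the largest decrease, −1.63 (SE 0.34, adjusted p = 0.0301), at a level of 0.808 ± 0.392 CPM (SD, n = 9) in WT, and it shares 3122 bp of exon with Prn. Tubb4b-ps1 (−0.35, adjusted p = 0.0164) is a pseudogene that can take reads of Tubb4b, which was itself lower (−0.28, adjusted p = 0.0327) and is named for that reason after its values were seen.

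Tcap, which codes for the sarcomere protein telethonin, was at 2365 to 3015 CPM (median 2693) in WT and 2936 to 3863 CPM (median 3373) in ∆Ig3-MuSK, with 8 libraries above all WT libraries and a log2 fold change of 0.34 (SE 0.06, adjusted p = 0.0219). The largest increase was that of Gm9176, 1.81 (SE 0.41, adjusted p = 0.0363), at 0.199 ± 0.0929 CPM (SD, n = 9) in WT. Arrdc2, an arrestin-domain gene, rose by 1.43 (SE 0.34, adjusted p = 0.0405), with a single library, ∆Ig3-MuSK replicate 4, at 61.5 CPM and the next at 32.9 CPM.

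Mitochondrial tRNA genes gave a cluster of calls. mt-Ta, the tRNA gene for alanine, ran from 54.0 to 77.8 CPM (median 67.3) in WT and from 69.6 to 95.8 CPM (median 89.7) in ∆Ig3-MuSK, with a log2 fold change of 0.38 (SE 0.07, adjusted p = 0.0185). Its neighbors mt-Tw, mt-Tn, mt-Tc and mt-Ty, named after their values were seen, also rose, by 0.33, 0.37, 0.40 and 0.40 (adjusted p = 0.0321, 0.0318, 0.0327 and 0.0327). The 5 genes lie side by side on the mitochondrial chromosome, from 4950 to 5326, between mt-Nd2 and mt-Co1. mt-Tw is on the plus strand, as mt-Nd2 and mt-Co1 are, while mt-Ta, mt-Tn, mt-Tc and mt-Ty are on the minus strand. Reads here cannot be assigned to a strand, so these values may not be levels of the tRNAs alone. All 37 mitochondrial genes tested were above 0, with a median of 0.23, and no others were called.

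In the TA, edgeR called 3 of 20075 genes (0.0149%), Dbp, Sphk2 and Gstt2, the last named after its values were seen, while 4842 (24.1%) had an unadjusted p under 0.05 and DESeq2 called 225. For Dbp the TA value was 0.90 (adjusted p = 0.0012) beside 1.23 in the soleus. Of the 71 genes with a higher soleus level, the TA fit held 64, and 46 were above 0 there, with a median of 0.10. Of the 114 lower ones, 111 were in that fit and 77 were below 0, with a median of −0.09. The share of all tested genes with the same sign in both muscles was not taken. Most label numbers of each genotype occur in both muscles. Agreement between the muscles, that of the clock genes included, may thus come from the same mice and is no independent repeat. The clock repressor and output list had a median of 0.25 in the TA, with Per2 at 1.44 (adjusted p = 0.0788), Ciart at 1.25 (adjusted p = 0.0606) and Per3 at 0.81 (adjusted p = 0.0877), while the neuron and glia list had one of −0.07 and the collagen list one of 0.09.

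**Figure D5:**
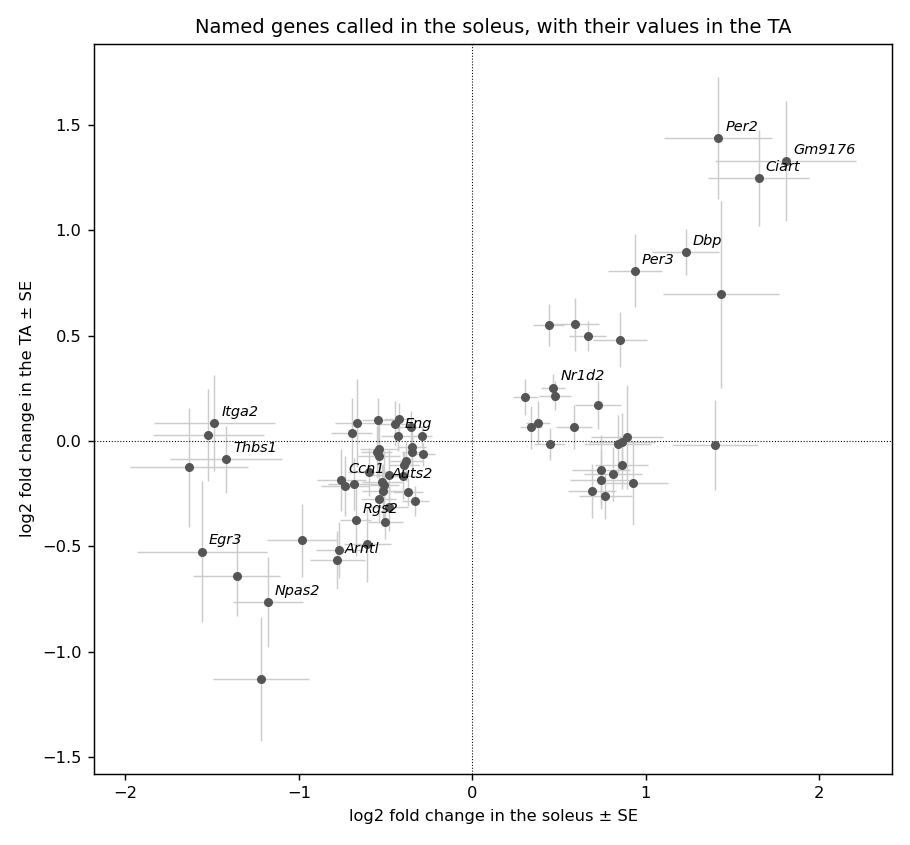
Log2 fold change in the soleus (x axis) and in the TA (y axis), each ∆Ig3-MuSK over WT with its SE, for the 72 named soleus calls that could also be tested in the TA. Dbp, Per2, Per3, Ciart and Gm9176 lie at high values on both axes (1.23 and 0.90 for Dbp), while neuronal genes such as Celf4 (0.69 and −0.24) lie at or below 0 in the TA. Most label numbers occur in both muscles, so the axes may hold values of the same mice and are not independent.

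The difference between the muscles was itself tested as an interaction in a fit of the 36 libraries. At an adjusted p under 0.05, edgeR found 0 of 20841 genes (0%), with a smallest adjusted p of 0.0652, while 5193 (24.9%) had an unadjusted p under 0.05 and DESeq2 found 186. Among the 185 soleus calls, 115 had an interaction p under 0.05 before adjustment, and 34 were under 0.05 in DESeq2 after adjustment. The 185 were chosen by the same soleus values that enter the interaction, so these counts are a description and are not set against the 24.9%. Of the named genes, those nearest to the threshold were neuronal, with Slc1a2 at 0.77 in the soleus and −0.26 in the TA on the log2 scale (interaction adjusted p = 0.0652), Hpca at 0.86 and −0.11 (0.0652) and Celf4 at 0.69 and −0.24 (0.0656). For Rgs2 (−0.67 and −0.38), Auts2 (−0.51 and −0.21) and Dbp the interaction had an adjusted p of 0.373, 0.342 and 0.338. For Eng (−0.43 and 0.03) it was 0.102. In each genotype 8 label numbers occur in both muscles, which this fit did not use; with the label number as a random block in limma-voom, 9 genes were under 0.05 after adjustment, 4 of them among the 185.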

How the data were processed

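RNA-seq was done by the authors on 9 WT and 9 ∆Ig3-MuSK soleus muscles; the 18 TA libraries were used only where named. Libraries carried no strand information. Per the labels and the paper's methods, reads were trimmed with Trimmomatic, aligned to mm10 (GRCm38) with GSNAP and counted per gene with HTSeq; versions and the annotation release are not given in the sources used here. The authors deposited whole-number counts per Ensembl gene ID, without normalization or filter. Of 51912 IDs, 51633 matched GENCODE M21 of GRCm38. Columns of samples outside the series numbered 0.

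Counts were analyzed in R 4.3.3 with edgeR 4.0.16. The filter was filterByExpr, set to a count of at least 10 and a total of at least 15. Genes were scaled with TMM factors and tested with the quasi-likelihood test and Benjamini-Hochberg adjustment over all genes tested. Genes were called at an adjusted p under 0.05 and at least 1.2-fold, the limits stated for the study's DESeq2 analysis. The labels give each library as a separate sample with a number, 8 of which per genotype recur in the TA, and the paper gives 1 muscle per animal. Standard errors were derived from the log2 fold change and the F statistic of this test, whose dispersion is moderated over genes. They are thus no direct measure of the spread of 1 gene. They reflect mainly the spread among libraries, since counting error is small for most genes at 43492062 counts or more per library. Low neuronal genes carry counting error of their own.

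The genes named are Musk, Rgs2, Dbp, Auts2 and Eng, the 15 higher and 15 lower calls with the smallest adjusted p, the 5 of each direction with the largest change, all called members of 35 gene lists and up to 4 members per list with the highest CPM. A few genes that this rule picks are not reported here. Values given for a list, such as medians, summed levels and counts below 0, describe it without a test. The members and the lists were chosen with earlier results of these data known, so they are no independent evidence. Alternatives were DESeq2 1.42.0, limma-voom 3.58.1, other scaling, filters and blocks, and each library left out; fits with 1 of 4 covariates were added later, with the data in view. The procedure was tested on simulated counts with larger changes than most called here and without differences in library makeup. That test does not bear on small changes or on the effect of single libraries.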

Additional observations from a re-analysis of the deposited data

Results flagged for a closer look

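In 18 of 298 groups of 9 libraries (113 genes, 35 gene lists and the total counts, in each genotype), the highest or lowest library lay apart from the rest by a share of the range of its group above Dixon's 95% critical value. Chance alone gives this in about 1 group in 20. WT replicate 7 was the highest of its group for Col3a1 (728 CPM, next 309), Fstl1 (183 CPM, next 96.6), Bmp1 (38.2 CPM, next 27.6), Sec61a1 (26.9 CPM, next 22.5) and the mean log2 CPM of the RGS family (1.94, next 1.68). ∆Ig3-MuSK replicate 8 was the lowest for the mean log2 CPM of the tendon list (0.91, next 3.46) and for Sparc, a collagen-binding matrix protein gene (150 CPM, next 242). WT replicate 1 was the lowest of its group for the mean log2 CPM of the MuSK and synapse list (3.82, next 4.00) and the pericyte and smooth muscle list (4.36, next 4.51), and the highest for the adipocyte list (4.74, next 3.67).

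∆Ig3-MuSK replicate 4 was the highest for Arrdc2 (61.5 CPM, next 32.9) and the lowest for Nr1d1 (119 CPM, next 153) and Tubb4b-ps1 (9.39 CPM, next 10.8). The others were Gad2 in ∆Ig3-MuSK replicate 9 (0.422 CPM, next 0.883), Egr3 in replicate 5 (0.247 CPM, next 0.524) and Plat, the gene of tissue plasminogen activator, in replicate 7 (8.51 CPM, next 6.69), and Sik1 in WT replicate 6 (48.4 CPM, next 32.6) and Nfil3 in WT replicate 9 (22.5 CPM, next 15.02). The causes of these departures were not tested.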

How the results depend on the processing

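The number of genes called in the soleus, 185 in the fit reported, was 486 with DESeq2 on the same genes and 486 with DESeq2 and a filter at 0.5 CPM in 1 library, 653 with limma-voom and quality weights, and 312 with all 36 libraries in 1 fit. Robust estimation, RLE and upper-quartile factors, no filter, 10 counts in every library and no fold minimum gave 162, 183, 191, 141, 173 and 227. None of the 185 genes changed sign under these or with a replicate block, and 93 of them were called under all 10 of the refits (the block included, the fold minimum aside). Covariates added after the data were seen left 26 calls (tendon level), 0 (neuron and glia level), 0 (fast fiber level) and 0 (immediate early level); with the second of these Gfap (−0.047), Slc1a2 (−0.0019) and Syt1 (−0.052) changed sign, all members of the list that makes up the covariate, whose values are thereby centred near 0. The covariate levels themselves differed in median between the genotypes, so fits with them cannot separate these levels from genotype. With a library left out the count of calls ran from 22 to 603. The replicate block gave 347 calls, 26.2% of them higher against 38.4% without it, but same-numbered WT and ∆Ig3-MuSK libraries come from different animals and their deviations correlated at −0.38 to 0.44, so the numbers do not pair them; only replicate 7 correlated best with its own number. In the TA, 3 calls became 225 with DESeq2 and 0 with the replicate block. The interaction gave 0 genes, 186 with DESeq2, 9 with limma-voom and the label number as a block and 0 with the replicate block. The difference in total counts kept a p under 0.05 with each library left out (0.00432 to 0.0191, exact permutation test). The causes of these changes were not tested.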
